A study of Caenorhabditis elegans with 2 samples.

Results

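The large subunit cytosolic ribosomal protein genes of Caenorhabditis elegans were taken as the protein-coding genes of the WBcel235 annotation whose symbol begins with rpl- or rla- and a digit, which gave 50 genes of 19973 nuclear protein-coding genes. The rule reads the symbol and no measured value, although the family was picked for description with earlier results of these data known. Binding of the nuclear hormone receptor NHR-43 at their promoters was described from chromatin immunoprecipitation followed by sequencing (ChIP-seq) of whole hermaphrodite L3 larvae, collected 36.5 h after release from synchronisation as starved L1. The animals were strain OP477, genotype unc-119(tm4063) III; wgIs477, in which an integrated transgene makes NHR-43 fused at its C-terminus to GFP-FLAG, and per the sample description chromatin was recovered with an antibody to GFP. The antibody field of the labels names nhr-43 instead, which was read as the target. The 2 samples are biological replicates of this 1 group, so no condition was compared with another, and every value below is a position or a peak signal within a list. The tagged protein comes from a transgene, and whole animals hold all tissues, so no peak can be given to a cell type. A control experiment is listed in the labels and entered the authors' peak calling, per the file headers; its libraries were not analysed here.

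The cytosolic ribosome joins a small subunit, which reads the messenger RNA, to a large subunit, which holds the peptidyl transferase centre, the tunnel through which the new chain leaves, and mobile stalks that receive translation factors and release transfer RNA. Nearly every large subunit protein is needed in 1 copy per ribosome, and growing larvae make many ribosomes. NHR-43 belongs to the nuclear hormone receptors, transcription factors with a zinc finger DNA-binding domain, a family that is much expanded in nematodes.

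Of the 50 large subunit genes, 33 (66%) had a summit of the thresholded peak list in their promoter window, which reached 1000 bp upstream and 200 bp into the gene from its annotated 5′ end. Such a gene is called bound here. The same call was made for 10.1% of all nuclear protein-coding genes (2010 of 19973). Each bound large subunit gene had 1 summit, and the 33 genes had 33 different peaks. The peak at rpl-3, whose product reaches into the peptidyl transferase centre, ranked first by signal among the 3870 nuclear peaks.

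The DNA under the 6 highest large subunit peaks that can be shown is printed because the values below turn on these sites and on the short words they share. Each sequence is the ce11 (WBcel235) reference from RefSeq, 5′ to 3′ on the strand of the gene, and spans 75 bases to each side of the summit. The window of rpl-12 was ended at the gene's 5′ end and holds 107 bases. Capitals mark 6 words on either strand. They are ACCGTA, then GAGACC with its shifted forms AGACCC (to the right) and CGAGAC (to the left), and then CCTAAA with its shifted form GCCTAA. They are the 6 of 2080 words of 6 bases whose share at large subunit peaks stood furthest above that at other promoter peaks. The windows are chrIII:3867493-3867643 (plus strand) for rpl-3, chrIV:4749991-4750141 (minus strand) for rpl-20, chrIII:7854599-7854749 (plus strand) for rpl-35, chrIV:654855-655005 (minus strand) for rpl-15, chrIV:13240652-13240758 (minus strand) for rpl-12 and chrIV:4390596-4390746 (minus strand) for rpl-7A. None of the 6 windows overlaps an exon.
rpl-3: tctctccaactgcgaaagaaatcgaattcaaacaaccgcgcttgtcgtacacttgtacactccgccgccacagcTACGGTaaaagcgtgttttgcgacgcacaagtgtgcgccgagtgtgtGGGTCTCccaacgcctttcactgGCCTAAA
rpl-20: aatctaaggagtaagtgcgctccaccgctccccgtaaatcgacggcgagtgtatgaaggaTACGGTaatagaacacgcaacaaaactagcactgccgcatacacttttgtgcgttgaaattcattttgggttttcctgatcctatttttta
rpl-35: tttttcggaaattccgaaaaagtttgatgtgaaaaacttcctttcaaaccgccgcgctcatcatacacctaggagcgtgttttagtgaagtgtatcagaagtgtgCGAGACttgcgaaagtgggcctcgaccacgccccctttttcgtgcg
rpl-15: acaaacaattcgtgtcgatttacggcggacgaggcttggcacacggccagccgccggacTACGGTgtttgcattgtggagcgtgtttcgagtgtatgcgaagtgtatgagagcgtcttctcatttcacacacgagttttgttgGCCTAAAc
rpl-12: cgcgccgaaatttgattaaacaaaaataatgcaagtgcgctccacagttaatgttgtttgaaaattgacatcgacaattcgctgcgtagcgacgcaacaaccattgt
rpl-7A: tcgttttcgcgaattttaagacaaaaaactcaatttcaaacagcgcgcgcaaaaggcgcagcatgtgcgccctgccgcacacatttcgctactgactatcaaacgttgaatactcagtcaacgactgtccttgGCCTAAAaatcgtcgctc

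In these windows ACCGTA or its reverse complement stood within a few bases of the summit of rpl-3 and upstream of it in rpl-20 and rpl-15. The string GCCTAAA stood near the end of the windows of rpl-3, rpl-15 and rpl-7A, on the side of the gene. The window of rpl-12 held none of the 6 words.

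Signal is the authors' value for each peak, and its scale belongs to its own list. It was therefore set beside other peaks of the same list only, and ranks within a replicate's list count its mitochondrial peaks. At rpl-3 the signal was 2066 in the pooled list, 823 in replicate 1 (rank 19 of 29315) and 1229 in replicate 2 (rank 18 of 30000), with the summit 286 bp upstream of the 5′ end. At rpl-20 it was 1553 pooled, 642 in replicate 1 and 877 in replicate 2, with the summit 288 bp upstream. At rpl-35, whose product sits at the mouth of the exit tunnel, it was 1545, 637 and 840 in the same order, with the summit 460 bp upstream. These 3 peaks held nuclear ranks 1, 4 and 5 in the pooled list.

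At rpl-15, a protein of the subunit's core, the signal was 1302 pooled, 581 in replicate 1 and 700.4 in replicate 2, with the summit 354 bp upstream. At rpl-12, which forms the base of the factor-binding stalk, it was 919, 348 and 523, with the summit 32 bp upstream, the closest of the 33. At rpl-7A it was 879, 275 and 495, with the summit 81 bp upstream. The first 6 genes kept the same order in both replicates' lists. At rpl-11.2, whose product binds 5S ribosomal RNA, the signal was 558 pooled, 209.8 in replicate 1 and 296 in replicate 2. These 7 peaks were all among the 100 highest nuclear peaks, and 12 large subunit peaks were among the 500 highest.

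At rpl-43, the counterpart of human RPL37A, the signal was 444 pooled, 178 in replicate 1 and 219 in replicate 2. Its summit lay 745 bp upstream, the furthest of the 33, and only 176 bp upstream of the divergent gene Y48B6A.1. At rpl-22 it was 389, 124 and 214. At rpl-24.2, the counterpart of the human assembly factor RSL24D1, it was 376, 139 and 200.1, and its summit, 143 bp upstream, lay inside the gene C03D6.1. The other bound genes followed in falling order of pooled signal, from rpl-24.1 (312) through rpl-14, rpl-41.2, rpl-6, rpl-25.2, rpl-21, rpl-9, rpl-36, rpl-7, rpl-5, rpl-31, rpl-13, rpl-1, rpl-4, rpl-23, rpl-33, rpl-39, rpl-32, rpl-2, rpl-36.A, rpl-38 and rpl-28 (77.6) to rpl-30 (75.7). The median over the 33 peaks was 163, with quartiles of 128 and 389, against a median of 118 and quartiles of 81.4 and 195 over the 1612 other promoter peaks.

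**Figure D1:**
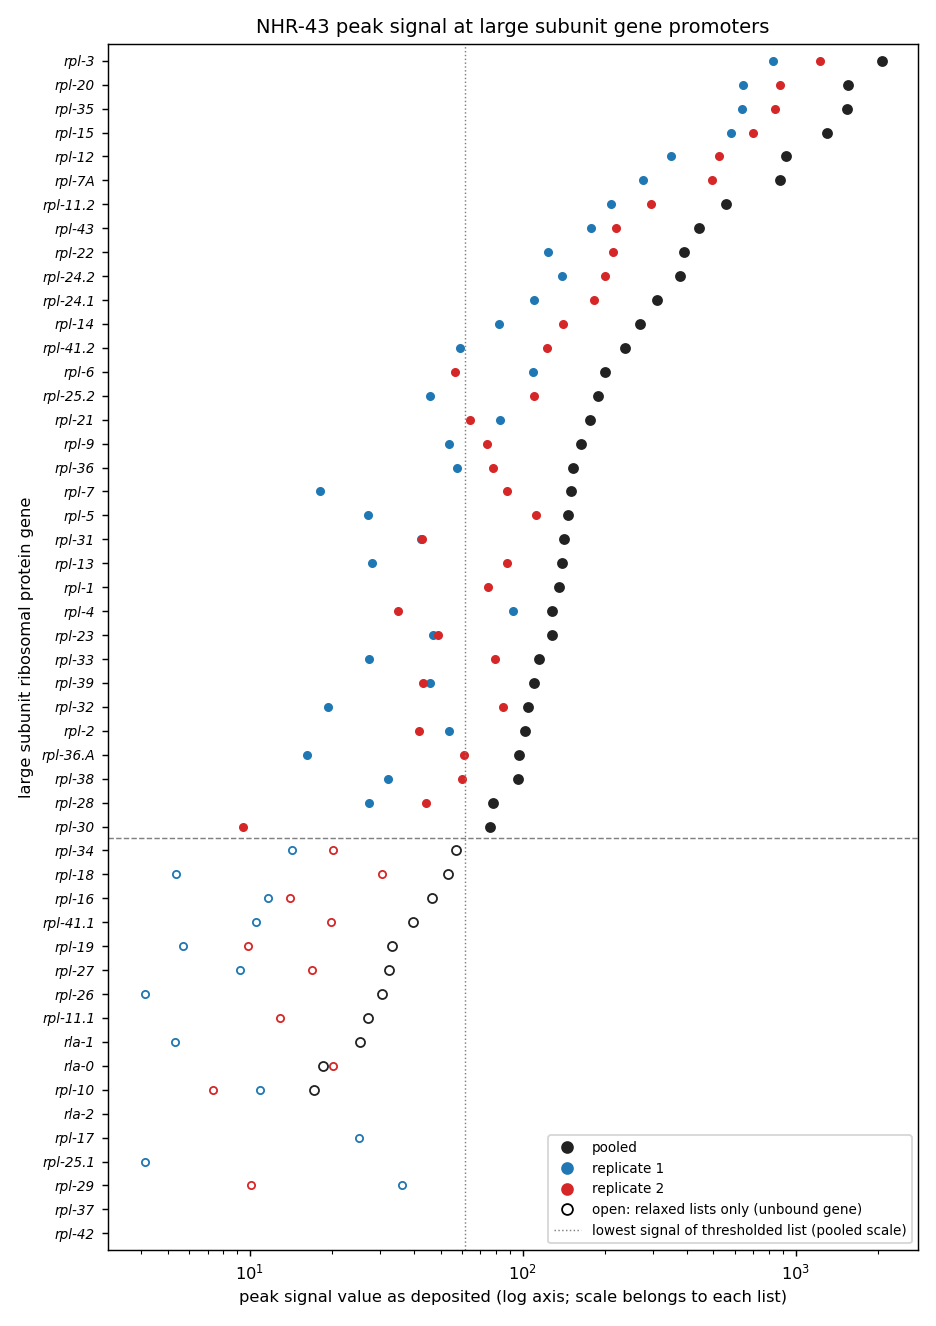
Peak signal (log axis, the authors' values, each on the scale of its list) at the 50 large subunit genes in the pooled list and in each replicate, with filled points for bound genes and open points for the highest relaxed-list summit in the window of unbound genes. The 33 bound genes ran from 2066 at rpl-3 to 75.7 at rpl-30 in the pooled list, and 3 unbound genes had no point in any list.

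The replicates were compared through the summits of their own relaxed lists within 100 bp of each pooled summit. All 33 large subunit peaks had such a partner in replicate 2 and 31 had one in replicate 1, where rpl-1 and rpl-30 had none. The median distance between the summits was 10 bp in replicate 1 and 11 bp in replicate 2. Over the 31 genes with both values, the replicates' signals had a Spearman correlation of 0.684, given as a description, since these peaks share the same libraries. Ranks of the 10 highest genes lay close together in both replicates, and those of several lower ones did not. At rpl-6 the signal was 109 in replicate 1 (rank 381) and 56.7 in replicate 2 (rank 2216), whereas at rpl-7 it was 18.0 in replicate 1 (rank 3806) and 87.9 in replicate 2 (rank 1225).

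When each replicate was cut to its own 3889 highest peaks, the length of the thresholded list, 33 large subunit genes (66%) had a summit in the window in replicate 1, against 9.81% of all genes, and 31 (62%) in replicate 2, against 9.52%. The genes called in the pooled list and in both replicates numbered 30, counting a summit anywhere in the window. Among them is rpl-1, whose replicate 1 summit lay 353 bp upstream, against 232 bp in the pooled list. Of the other 3, rpl-4 was called in replicate 1 only (92.0, rank 494, against 34.9 and rank 4041 in replicate 2), rpl-36.A in replicate 2 only (61.1, rank 2007, against 16.2 and rank 4377 in replicate 1), and rpl-30 in neither. The pooled call at rpl-30 therefore rests on a site that had no partner in replicate 1 and a signal of 9.41 (rank 21500) in replicate 2.

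The small subunit genes, those whose symbol begins with rps- and a digit, had the most similar shares among the families compared. In the thresholded list 22 of 31 (71.0%) were bound, with a median signal of 216 and a maximum of 744 at rps-12. When each peak went to the nearest 5′ end only, 11 of 31 small subunit genes (35.5%) and 22 of 50 large subunit genes (44%) were bound. The same rule called 10.8% of all nuclear protein-coding genes (2166 of 19973). Of the 70 genes for proteins of the mitochondrial ribosome (mrpl and mrps), 13 (18.6%) were bound, with a maximum of 255 at mrps-7. Of 34 genes for ribosome assembly factors and RNA polymerase I subunits, 10 (29.4%) were bound, led by the methyltransferase gene fib-1 (329) and by rbd-1 (254); 1 further symbol of the 35 in that list, nmd-3, did not match the annotation. The gene ubq-2, which encodes a fusion of ubiquitin with the large subunit protein L40 and falls outside the symbol rule, was bound with a signal of 183, 503 bp upstream. Peaks were shared by a gene of each subunit at 3 places, between rpl-24.1 and rps-10, between rpl-36 and rps-14, and between rpl-39 and rps-30. The families were not tested against each other.

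**Figure D2:**
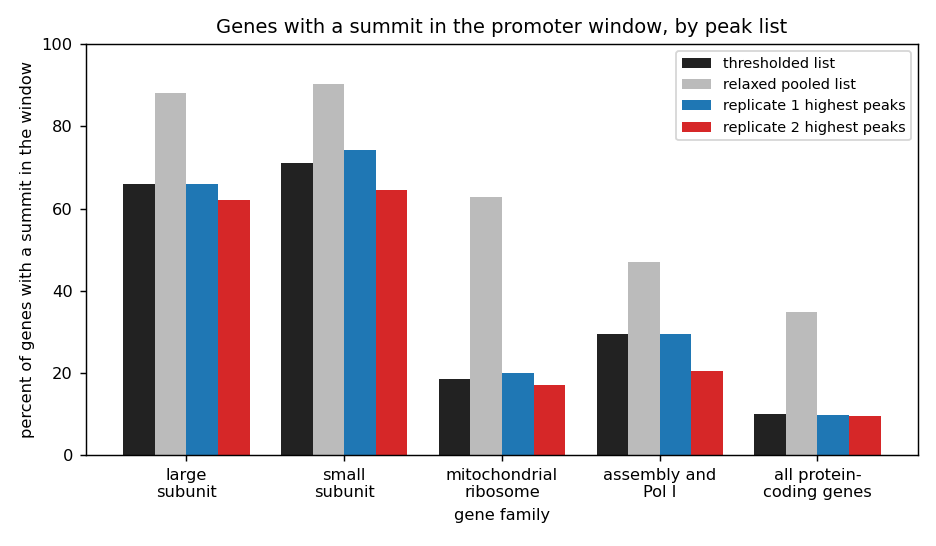
Percent of genes with a summit in the promoter window for 4 gene families and for all nuclear protein-coding genes, in the thresholded list, the relaxed pooled list and the 3889 highest peaks of each replicate. The large subunit bars stand at 66%, 88%, 66% and 62%, and those of all genes at 10.1%, 34.8%, 9.81% and 9.52%.

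The bound genes were spread over the subunit's parts, which were sorted into roles after the values had been seen. Of the 3 genes whose products reach the catalytic centre, rpl-3 and rpl-2 were bound and rpl-10, which is added late in subunit maturation, was not. Of the 9 genes for the wall and rim of the exit tunnel, 5 were bound, namely rpl-35, rpl-25.2, rpl-31, rpl-4 and rpl-39, and 4 were not, namely rpl-17, rpl-19, rpl-25.1 and rpl-26. Of the 4 genes for the factor-binding stalk, only rpl-12, its base, was bound. The 3 acidic stalk genes rla-0, rla-1 and rla-2 were not. The gene for the L1 stalk protein, rpl-1, was bound with a signal of 136. Of the 3 genes for proteins that bind 5S ribosomal RNA, rpl-5 (146) and rpl-11.2 (558) were bound and rpl-11.1 was not. Among the 30 other genes 22 were bound.

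Of the 6 pairs of genes that share a number, 3 had 1 bound and 1 unbound gene and 3 had both bound. The paralogue rpl-11.2 was bound with a signal of 558, while rpl-11.1 had no thresholded summit and its highest relaxed pooled summit had a signal of 27.1, with 12.9 in replicate 2 and no summit in replicate 1. For the exit tunnel proteins encoded by rpl-25.2 and rpl-25.1, the former had a signal of 189 (45.9 in replicate 1 and 109.6 in replicate 2) and the latter no pooled summit at all in its window. The gene rpl-41.2 was bound with a signal of 237 (59.2 in replicate 1 and 122.7 in replicate 2). Its partner rpl-41.1 reached 39.6 in the relaxed pooled list only, 82 bp downstream of its 5′ end. There the signal was 10.5 in replicate 1, 110 bp downstream, and 19.9 in replicate 2, 1 bp downstream. Both rpl-24 genes were bound: rpl-24.1, for a protein of a bridge between the subunits, had a signal of 312 (109.96 in replicate 1 and 183 in replicate 2), and rpl-24.2 one of 376. So were rpl-7A (879) and rpl-7 (150.2), which are not copies of each other and share only a number. The genes rpl-36 and rpl-36.A were both bound as well. The signal of rpl-36 was 153 (57.6 in replicate 1 and 77.5 in replicate 2), and that of rpl-36.A was 97.3 (16.2 in replicate 1 and 61.1 in replicate 2).

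The 17 unbound genes were rla-0, rla-1, rla-2, rpl-10, rpl-11.1, rpl-16, rpl-17, rpl-18, rpl-19, rpl-25.1, rpl-26, rpl-27, rpl-29, rpl-34, rpl-37, rpl-41.1 and rpl-42. In the relaxed pooled list, which holds 30000 peaks and reaches far below the threshold, 11 of them had a summit in the window. That raised the count to 44 of the 50 large subunit genes (88%), against 34.8% of all protein-coding genes. The lowest signal of the thresholded list was 61.4 and its lower quartile 78.2. The lowest bound gene, rpl-30 (75.7, nuclear rank 3012 of 3870), stood near that quartile, and the highest unbound gene, rpl-34 (56.9), stood just below the list, followed by rpl-18 (53.3) and rpl-16 (46.7). The other 8 were rpl-41.1 (39.6), rpl-19 (33.3), rpl-27 (32.3), rpl-26 (30.6), rpl-11.1 (27.1), rla-1 (25.4), rla-0 (18.6) and rpl-10 (17.2).

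At rpl-34 the relaxed signal was 14.3 in replicate 1 and 20.2 in replicate 2, at 409 bp and 471 bp upstream. At rpl-18 it was 5.38 in replicate 1, 758 bp upstream, and 30.6 in replicate 2, 218 bp upstream, so the replicates' summits were not at the same place. At rpl-16, the counterpart of human RPL13A, it was 11.6 and 13.98, at 68 bp and 75 bp upstream. These 3 genes stayed outside the 3889 highest peaks of each replicate, as did the next 6. At rpl-27 the relaxed signal was 9.201 in replicate 1, 463 bp upstream, and 16.9 in replicate 2, 114 bp upstream. At rpl-10 it was 10.9 in replicate 1, 372 bp upstream, and 7.31 in replicate 2, 127 bp upstream. At neither gene were the replicates' summits at the same place. At rpl-19 it was 5.68 and 9.86, at 828 bp and 827 bp upstream. Summits in 1 replicate only were listed at rla-0 (20.3 in replicate 2), rla-1 (5.33 in replicate 1) and rpl-26 (4.13 in replicate 1). The genes rpl-17 and rpl-29 had no pooled summit in the window but passed the rank limit in replicate 1, with ranks of 2576 and 1687, the latter with a signal of 36.2. Replicate 2 had none at rpl-17 and 10.1 at rpl-29, 93 bp upstream, whereas replicate 1 had its summit 256 bp upstream there. The genes rla-2, rpl-37 and rpl-42 had no summit in any list, and rpl-25.1 had only a replicate 1 summit of 4.12.

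The summits lay in a narrow band. Over the 33 bound genes the median was 293 bp upstream of the annotated 5′ end, with quartiles of 246 bp and 370 bp and a range of 32 bp to 745 bp, and no summit lay downstream of the 5′ end. From 200 bp to 450 bp upstream there were 27 of the 33 (81.8%), 17 of the 22 bound small subunit genes (77.3%), 4 of the 13 bound mitochondrial ribosome genes (30.8%) and 628 of the 1977 other bound genes (31.8%). The limits of that band were set after the positions had been seen. The other bound genes had a median of 246 bp with quartiles of 127 bp and 461 bp. The mitochondrial ribosome genes had a median of 150 bp (n = 13) and the assembly genes one of 195 bp (n = 10). Many C. elegans messages receive a spliced leader in trans, which removes the original 5′ end, and the annotated 5′ ends of the 50 genes stood a median of only 6.5 bp before the start codon. The range of that distance was 0 bp to 642 bp, the largest at rpl-19, whose window therefore sits further from its start codon. Distances are thus measured from annotated ends and not from mapped starts of transcription.

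**Figure D3:**
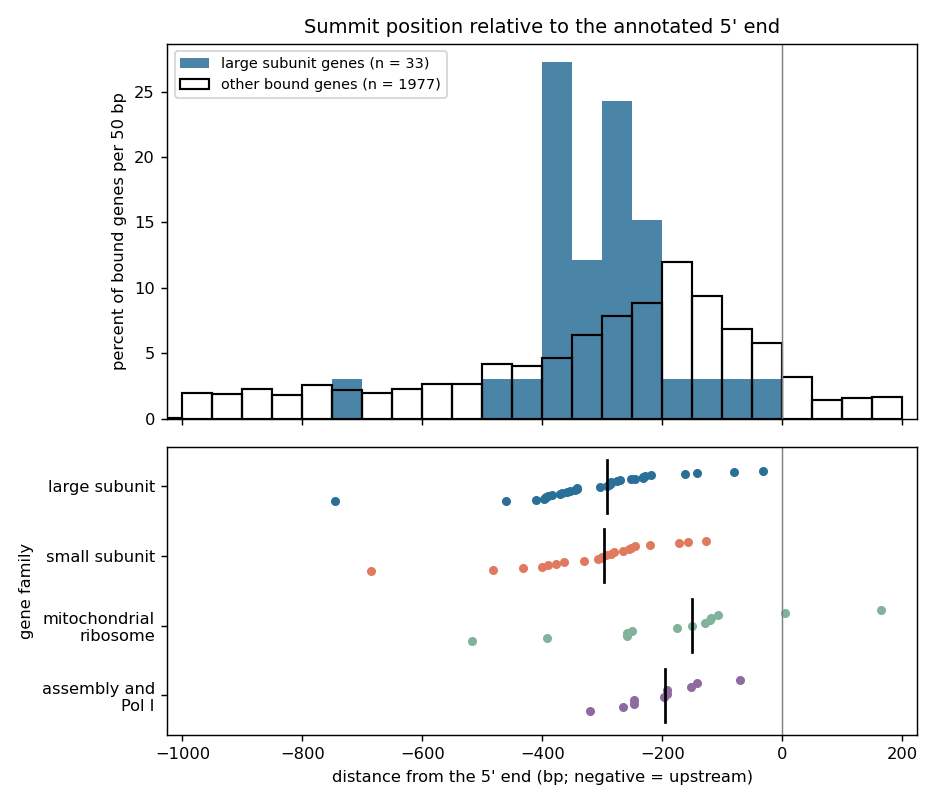
Position of the highest thresholded summit relative to the annotated 5′ end (bp, negative upstream) as percent of bound genes per 50 bp for large subunit genes (filled, n = 33) and all other bound genes (outline, n = 1977), and below it gene by gene for 4 families, with a black bar at each median. The medians are 293 bp, 297.5 bp, 150 bp and 195 bp upstream from top to bottom.

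Most of these sites lay between genes, and many fell in more than 1 promoter window. Of the 33 summits 31 were intergenic; that of rpl-24.2 was in C03D6.1, and that of rpl-30 lay in an exon of the poly(A)-binding protein gene pab-1, 16 bp downstream of its 5′ end. For 23 of the 33 genes the peak also fell in the window of another protein-coding gene, and 10 had a peak of their own. The neighbours included the chromatin regulator lin-54, whose 5′ end was 361 bp from the rpl-12 summit, and the methyltransferase gene set-21, 173 bp from the rpl-7A summit. The peak of rpl-9 also fell in the window of the assembly gene lpd-7, and that of rpl-28 in the window of mrpl-49, so the counts of those families above include a large subunit peak each. For these shared peaks the list does not say which gene, if either, the site serves. No transfer RNA gene lay within 500 bp of any of the 33 summits, and small nucleolar RNA genes lay that close at 3 (rpl-7A, rpl-24.1 and rpl-4). Small nucleolar RNA genes, which guide ribosomal RNA modification, lay inside 7 of the 33 bound genes and 1 of the 17 unbound genes. No share over all bound genes stands beside these counts or those of shared peaks, so neither is read as a trait of the family.

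The genes upstream of the bound and unbound members were listed as well. Among the 33 bound genes 23 faced a divergent neighbour and 10 had an upstream neighbour on the same strand, at gaps of 540 bp to 2304 bp. Among the 17 unbound genes 9 faced a divergent neighbour and 8 followed a gene on the same strand, 5 of them at under 500 bp. These 5 were rpl-25.1 (98 bp behind glit-1), rla-1 (106 bp), rpl-16 (106 bp behind lias-1), rpl-27 (120 bp) and rpl-19 (365 bp). No bound gene had a same-strand neighbour that close. Genes that overlap the 5′ end were not taken as neighbours, namely C03D6.1 at the bound rpl-24.2 and pitp-1 at the unbound rpl-37. Divergent neighbours stood at gaps of 254 bp to 11498 bp for bound genes and 345 bp to 9035 bp for unbound genes. C. elegans transcribes some closely spaced genes on 1 strand as operons. The upstream neighbours of rpl-16 and rpl-25.1 were themselves bound, as was pas-5, 594 bp upstream of rla-0. The orientation and gaps of all protein-coding genes were not set beside these counts, and the part of gene spacing in the calls was not tested.

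By chromosome, 11 of 17 large subunit genes were bound on I, 6 of 9 on II, 7 of 9 on III, 4 of 8 on IV, 4 of 5 on V and 1 of 2 on X. The calls of all genes by chromosome were not set beside these.

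Short words were then counted in the 151 bp around each summit, on both strands. The word ACCGTA was present at 16 of the 33 large subunit peaks (48.5%), at 7 of the 20 small subunit peaks that are not shared (35%), at 7.75% of the 1612 other promoter peaks and at 4.13% of the 2225 peaks outside promoter windows. GAGACC was present at 45.5% of large subunit peaks and 10.6% of other promoter peaks. Its shifted form AGACCC was at 36.4% against 6.14%, and its other shifted form CGAGAC at 42.4% against 13.5%. CCTAAA was at 33.3% of large subunit peaks and 4.34% of other promoter peaks, and the overlapping GCCTAA at 30.3% and 2.23%. Both words were at 6.06% of large subunit peaks within 50 bp of the summit, and within 150 bp CCTAAA was at 60.6% and GCCTAA at 42.4%. These 6 were picked on these same peaks as the largest differences among 2080 words, so the differences are a description of the choice and carry no test.

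Joined by overlap, the 6 words form 3 groups, ACCGTA alone, GAGACC with its shifted forms, and CCTAAA with its shifted form. At large subunit peaks 14 windows held words of 2 groups and 2 held all 3, while 5 held none. Of the 1592 promoter peaks of neither subunit, 57 held words of 2 groups, 2 held all 3 and 1153 (72.4%) held none. Among the 20 small subunit peaks 4 held 2 groups and 2 held 3. Of the 12 peaks at mitochondrial ribosome genes 9 held none. The words were picked at these same large subunit peaks, so the contrast with other peaks follows in large part from the choice and tests nothing.

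**Figure D4:**
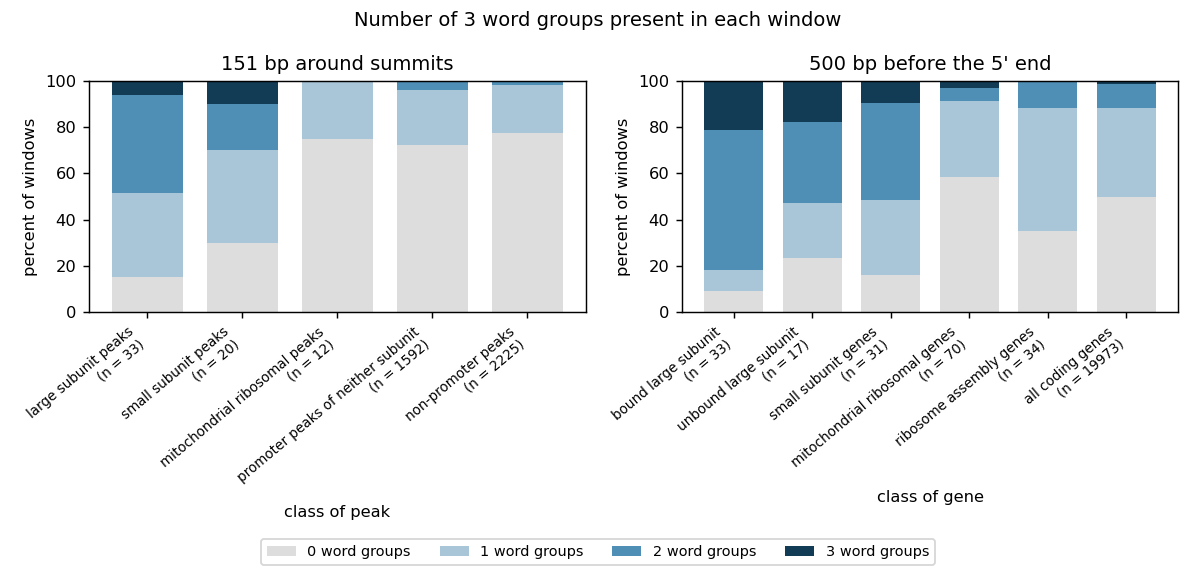
Percent of windows that hold 0, 1, 2 or 3 of the word groups, on the left for the 151 bp around summits by class of peak and on the right for the 500 bp before the annotated 5′ end by class of gene. At large subunit peaks, where the words were picked, 15.2% of windows held none, against 72.4% at promoter peaks of neither subunit. That contrast follows in large part from the choice of words. Among all protein-coding genes 49.9% of upstream windows held none.

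In the 500 bp before the 5′ end, the words were also present at unbound genes. This window was placed without the summit, but the words were picked around the summits of the bound genes, most of which lie in it. The shares of bound genes are thus raised by that choice, and their difference from the unbound genes was not tested. ACCGTA was there in 18 of 33 bound genes (54.5%), 7 of 17 unbound genes (41.2%), 11 of 31 small subunit genes (35.5%) and 13.9% of all protein-coding genes. GAGACC was there in 45.5% of bound and 41.2% of unbound large subunit genes, against 12.9% of all genes. CCTAAA was there in 24 of 33 bound genes (72.7%) and 7 of 17 unbound genes (41.2%), against 21.4% of all genes. Presence of the words and a bound call could part: rpl-17, rpl-18 and rpl-26 held all 3 groups and were unbound, while rpl-12 and rpl-32 held none and were bound. The window of rpl-43 held none either, but its summit lies beyond the 500 bp and words of 2 groups stood within 75 bp of it.

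The places and directions of the words were described next. In the 500 bp window of all 50 genes, the median first base of ACCGTA lay 303 bp upstream and that of GAGACC 275 bp upstream, while that of CCTAAA lay 187.5 bp upstream; over all protein-coding genes the 3 medians were 257 bp, 258.5 bp and 266 bp. ACCGTA read as written on the gene's strand in 18 of 25 matches (72%, all genes 52.5%), GAGACC in 4 of 23 (17.4%, all genes 47.8%) and CCTAAA in 29 of 42 (69.0%, all genes 55.96%). Among bound genes, ACCGTA lay within 50 bp of the summit in 13 of the 18 genes that held it and the GAGACC group in 17 of 20. The CCTAAA group lay that close in 2 of 26 genes, and in 24 of 26 it had a match between the summit and the 5′ end. All 6 words were chosen for lying within 75 bp of these summits, so their closeness to summits, and medians near those of the summits, follow in large part from the choice.

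**Figure D5:**
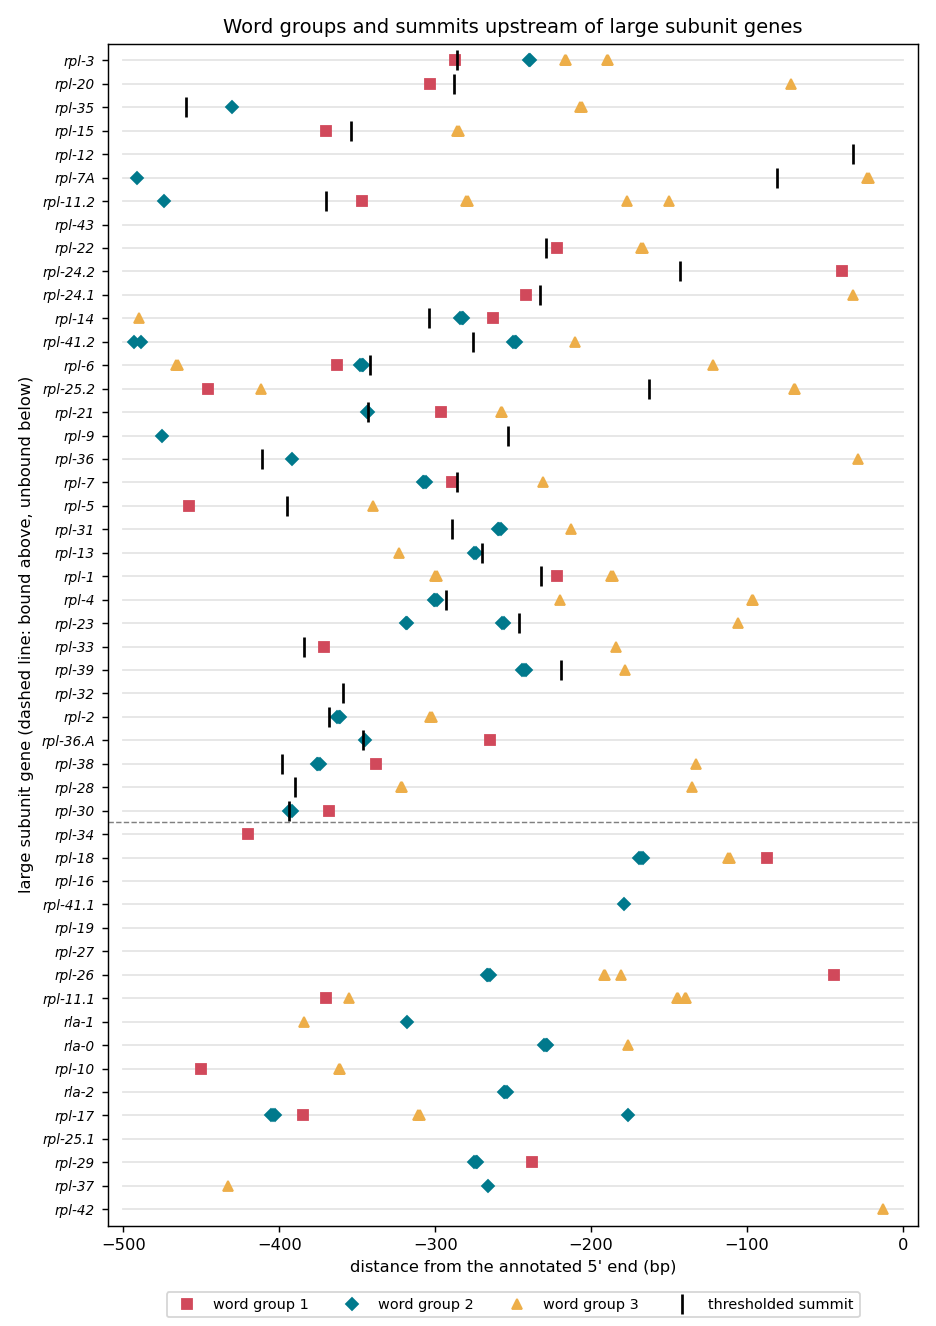
Matches of the 3 word groups (squares for ACCGTA, diamonds for the GAGACC group, triangles for the CCTAAA group) and thresholded summits (bars) over the 500 bp before the annotated 5′ end of each large subunit gene, bound genes above the dashed line in order of signal and unbound genes below it. Squares and diamonds mostly lie near the bars. A triangle lies to the right of the bar at 24 of the 26 bound genes that have triangles. At rpl-13 and rpl-14 triangles lie only to its left, and at rpl-1, rpl-6 and rpl-25.2 on both sides. The summit of rpl-43, 745 bp upstream, is outside the plot.

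Around ACCGTA the similarity went beyond the word at a minority of the genes that hold it. Of the 17 lines around the word that can be shown, 11 are of bound genes and 6 of unbound genes. The same 9 further bases stood before the word in 4 of the 11 and in 2 of the 6, and the other lines lacked them. The lines below show 40 bases with the word in capitals, from ce11 (RefSeq), each read 5′ to 3′ on the strand that carries the word as written, for 4 bound genes and for the unbound genes rpl-29 and rpl-34. They are printed because the bases aacgagtgt recur before the word in all 6. The places are chrX:2242950-2242989 (minus strand) for rpl-11.2, chrIII:8130508-8130547 (minus strand) for rpl-21, chrII:5055370-5055409 (plus strand) for rpl-22, chrIII:7208060-7208099 (plus strand) for rpl-6, chrIV:13881963-13882002 (plus strand) for rpl-29 and chrIV:12268551-12268590 (plus strand) for rpl-34.
rpl-11.2: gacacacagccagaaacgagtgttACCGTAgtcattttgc
rpl-21: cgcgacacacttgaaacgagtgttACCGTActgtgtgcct
rpl-22: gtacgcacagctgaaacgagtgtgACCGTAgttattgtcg
rpl-6: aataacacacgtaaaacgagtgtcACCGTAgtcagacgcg
rpl-29: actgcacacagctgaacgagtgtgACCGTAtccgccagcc
rpl-34: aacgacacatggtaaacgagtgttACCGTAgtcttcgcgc

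Those 9 bases, followed by any base and ACCGTA, had 29 matches in the nuclear genome. Of these, 27 lay in the promoter window of a protein-coding gene, 8 in that of a large subunit gene and 6 in that of a small subunit gene, with 13 in that of either. A thresholded summit lay within 100 bp of 18 of the 29. The large subunit genes with a match were rpl-1, rpl-6, rpl-11.2, rpl-21, rpl-22, rpl-24.1, rpl-29 and rpl-34, of which the last 2 were unbound. The 18 bases ending with the word were identical at rpl-11.2 and rpl-21 and occurred 11 times in the genome. The pattern was noticed in these sequences, so the counts describe it and test nothing.

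A second string, which itself contains none of the 6 words, recurred in windows that in part hold them. It is shown because 4 large subunit and 4 small subunit windows hold it.
shared string at rpl-7A, rpl-32 and rpl-39: CTGAGTATTCAACGTT

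This string of 16 bases had 16 copies in the genome, of which 9 lay in promoter windows of protein-coding genes and 11 within 100 bp of a thresholded summit. The windows were those of rpl-7A, rpl-13, rpl-32 and rpl-39 and of rps-0, rps-20, rps-22 and rps-30. The copy at rpl-39 also lies in the window of its divergent neighbour rps-30, so it is counted once for each subunit. Its reverse complement stands in the rpl-7A sequence printed above. All 4 large subunit genes were bound, with signals of 879 at rpl-7A, 139.9 at rpl-13, 110.0 at rpl-39 and 104 at rpl-32. The string was found by comparing the summit windows of bound genes with each other. The bound calls at these genes and the copies near summits thus follow in large part from that choice and test nothing.

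Words chosen for other reasons were counted beside these. The repeat GAGAGA was present at 18.2% of large subunit peaks and 25.9% of other promoter peaks. In the 500 bp before the 5′ end it was in 19 of 50 large subunit genes (38%), against 29.98% of all protein-coding genes. AGAGAG, by contrast, was picked on these same peaks as the largest deficit among all 2080 words. It was at 1 of 33 peaks (3.03%) against 22.02%, and this value describes the choice and carries no test. AGGTCA, the half-site of many nuclear receptors, was at 0 of 33 peaks, which allows a share of up to 9.09%, and at 5.52% of other promoter peaks. TATAAA was at 1 of 33 within 75 bp of the summit, against 178 of the 1612 other promoter peaks. Within 150 bp it was at 7 of 33 (21.2%), against 29.9%. CTGCGTCTC was at 6.06% of large subunit peaks and 7.94% of other promoter peaks within 75 bp, and CCGCCC at 3.03% and 9.55%. TTCTGC was at 12.12% and 10.86% in the same order, and CACGTG at 3.03% and 7.13%. The median G+C content of the windows was 47.0%, against 43.0% at other promoter peaks, and a mean of 30.5% of their bases was marked as repeat in the RefSeq genome, against 21.4% there and 35.7% in the whole nuclear genome. The part of base composition in the word counts was not tested.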

How the data were processed

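ChIP-seq peaks of tagged NHR-43 in 2 biological replicates were described. The authors deposited, per the file headers, relaxed lists for each replicate and for pooled reads and a list thresholded by irreproducible discovery rate (IDR), all as narrowPeak files derived from alignments and a control. Signal is the authors' value per peak, on a scale that belongs to its list; the summit offset was deposited in bp from the peak start, and summits may be off by 1 bp. The labels and headers name no aligner, caller or version and give no read depth, and signals therefore carry no interval. The ce10 lists were not used. The 3889 thresholded peaks include 19 on mitochondrial DNA, which were left out of the counts.

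The ce11 coordinates were used with the WBcel235 annotation from Ensembl and the RefSeq genome of that assembly, counted from 1. A gene was called bound if a thresholded summit lay from 1000 bp upstream to 200 bp downstream of its 5′ end. Partners lay within 100 bp and words within 75 bp. Every member was named, with full values for the 10 highest, for genes sharing a number and, where listed, for unbound genes; the rest were given by order and range. The members and lists were chosen with earlier results of these data known. No p-value was computed; the replicates are separate samples per the labels. Python 3.11.15, pandas 2.3.3 and numpy 2.4.6 were used, and the assignment and word counts were tested on simulated data. Other windows, list limits, assignment rules and single replicates were tried.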

Additional observations from a re-analysis of the deposited data

How the results depend on the processing

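The count of bound large subunit genes stayed within 1.5 times of 33 under all 8 alternatives: 32 with a window of 500 bp to 100 bp (rpl-43 was lost), 35 with 2000 bp to 200 bp (rpl-11.1 and rpl-16 were gained) and 26 with the 1944 highest-signal peaks only. It was 22 when each peak went to the nearest 5′ end, which assigns shared peaks away from 11 members. The shares of all protein-coding genes were 7.69% with the window of 500 bp to 100 bp and 13.3% with 2000 bp to 200 bp. They were 5.85% with the 1944 highest-signal peaks and 10.8% with nearest assignment. Leaving out a replicate gave 31 to 33 genes. For the other families, the wide window gave 20 mitochondrial ribosome genes, and nearest assignment gave 11 small subunit genes. The 1944 highest-signal peaks gave 8 mitochondrial ribosome genes, 6 assembly genes and 1169 genes in all.

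The median summit distance was 323 bp without replicate 2 and 304 bp without replicate 1. The standard deviation of these 2 medians, 13.4 bp, was taken as the spread between the replicates. From 293 bp the median moved by more than that to 273 bp with nearest assignment. It also did so without replicate 2, but that median is itself part of the spread. Within 50 bp of the summit, CCTAAA and GCCTAA were each at 6.06% of member peaks and TATAAA was at 0%; within 150 bp, CCTAAA was at 60.6% (other promoter peaks 9.68%) and TATAAA at 21.2% (29.9%). The window's length sets these changes. Partner limits of 50 bp and 200 bp gave 30 and 32 genes with support in both replicates, and the narrow window gave 19 genes that share a peak. No paired analysis was possible because there is 1 group.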

Other observations

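With 2 samples in 1 group, no spread between conditions exists and no group was large enough to look for outlying samples. A called gene carries a summit in its window; transcript levels were not measured, and the shared peaks cannot be assigned to 1 of their genes. The labels give no depth, and a missing summit at rla-2, rpl-37 or rpl-42 says only that none was listed. Neither control libraries nor ChIP-seq of other tagged proteins were analysed here, and how far these sites are shared with other factors was not tested.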
